A study of Mus musculus with 10 samples.

Results

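ELS mice that went through an acute swim stress (AS) in adulthood were compared with unstressed controls, the pair of groups that differ in both stresses at once. The comparison took every gene of the deposited expression table whose mean over the 4 groups was at least 3 on the log2 scale of the table, which kept 14986 of the 20171 genes used. Each value is a regularized log2 (rlog) expression level, and each difference is the level in stressed ELS mice minus the level in unstressed controls. The table gives 1 value per gene and group, so none of the differences carries an SD or a test, and "higher" and "lower" describe these values only.

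The study isolated ribosome-bound RNA from hippocampal cells marked by the gene Gprin3 and sequenced it in a design crossing ELS with AS. There are 10 libraries in the records, namely 2 of unstressed controls (Control in the figures), 3 of unstressed ELS mice (ELS), 2 of controls after AS (FST) and 3 of ELS mice after AS (ELS_FST). The methods give 3 libraries per group, and how many entered each group value is not stated. Each library pooled hippocampal RNA of 5 to 6 male mice aged 70 to 90 days. All groups were on the C57BL/6 background and, by the methods, carried the Gprin3-BacTRAP transgene, in which the Gprin3 promoter drives an EGFP-tagged ribosomal protein L10a, whereas every group is recorded as Wild Type in the sample labels. ELS was limited bedding and nesting, in which dams and pups lived on a wire grid with little nest material from postnatal day 2 to day 12, whereas control litters had a whole nestlet. All litters were weaned at day 21. For AS, mice swam for 6 min in water at 25 °C (2 L), and tissue was taken after 1 h of recovery. As a model, the transgene marks whichever cells use the Gprin3 promoter, CA3 pyramidal neurons by the methods, and each library averages several animals.

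Translating ribosome affinity purification (TRAP) pulls down tagged ribosomes with the mRNA they carry, so the RNA is enriched for the tagged cells, with some RNA from untagged cells carried along. CA3 pyramidal neurons receive mossy fibre input from the dentate gyrus, send Schaffer collaterals to CA1, and carry receptors for corticosteroids. A stressor drives immediate early genes, which follow calcium and cAMP signals within minutes, and then genes that follow the glucocorticoid receptor over the next hours.

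Over all 14986 genes, the differences centred near 0, with a median of −0.004 and quartiles of −0.13 and 0.13. At a size of over 0.5 on the log2 scale, 359 genes (2.40%) were higher in stressed ELS mice and 233 (1.55%) were lower. That makes 592 genes (3.95%) in either direction, of which 60.6% were higher. The shares of 2.40% and 1.55% are the ones to set beside each list count past 0.5 below. By sign alone the split was nearly even, as 49.1% of all genes lay above 0 and 50.9% below. In unstressed ELS mice 195 genes (1.30%) were higher and 288 (1.92%) lower than in the same controls, and in controls after AS 234 (1.56%) and 312 (2.08%). At a size of over 1, stressed ELS mice had 14 genes higher and 6 lower, and 6065 genes (40.5%) lay within 0.1 of 0. The smallest difference counted as higher was that of Tnfrsf13c (0.5003) and the largest left out that of Zfp36l1 (0.4995). On the other side these were Cnksr2 (−0.5010) and Dock4 (−0.4991), and at the filter on the mean Sh3tc1 (3.0005) was kept and Ube2u (2.9988) was not. The SD over genes was 0.255 in the lowest decile of means, 0.280 in the next and 0.168 in the highest.

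**Figure D1:**
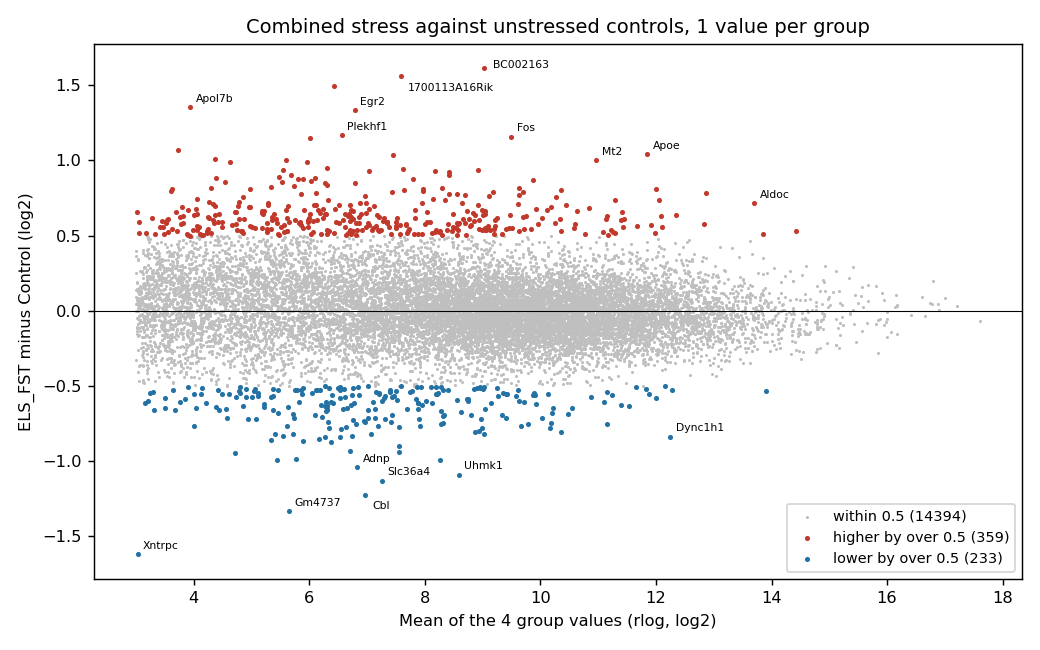
Each point is 1 of 14986 genes, with the mean of its 4 group values (rlog, log2 scale) on the x axis and its difference, stressed ELS mice minus unstressed controls (log2), on the y axis; red and blue points lie past 0.5. The 359 higher and 233 lower genes are spread over most of the range of means, with immediate early genes, Apoe and Mt2 near the top and Cbl, Uhmk1 and Dync1h1 near the bottom.

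Gprin3 itself, whose promoter drives the tag, had an rlog level of 7.47 in unstressed controls, 6.70 in unstressed ELS mice, 6.92 in controls after AS and 6.73 in stressed ELS mice. Its difference was −0.74, and all 3 stressed groups lay below the controls. Of 17 markers of CA3 pyramidal neurons, 14 were lower and 3 higher, with a median of −0.254. Of the 17, 4 were lower by over 0.5, against 1.55% of all genes. The others past 0.5 were the cadherin Cdh24 (−0.65), the protein kinase C isoform Prkcd (−0.62) and the adhesion molecule Nectin3 (−0.52). The marker furthest in the other direction was Npnt (0.26), an extracellular matrix protein also listed for dentate granule cells. The list stood at similar medians in unstressed ELS mice (−0.226) and in controls after AS (−0.190), both measured against the same unstressed controls. All 17 markers passed the filter on the mean, but so did the 71 glial markers described below. Passing therefore does not show which cells the RNA came from. The list medians were below 0 in the 3 stressed groups, though not every marker was, as Slc39a8 lay above unstressed controls in each. In RNA pulled down with tagged ribosomes and pooled over mice, fewer cells of a type and less RNA per cell cannot be told apart. Nor can either be told apart from a different share of RNA carried along from untagged cells.

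Immediate early genes were higher in stressed ELS mice. Of 27 immediate early transcription factors, 24 were higher and 3 lower, and 11 were higher by over 0.5 against 2.40% of all genes, with none lower by that much. The list median was 0.265, beside −0.004 over all genes. The same list had a median of 0.027 in unstressed ELS mice and 0.331 in controls after AS, so the values stood with those of the other swum group.

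Egr2, a zinc finger factor of the early growth response family, had levels of 6.13 in unstressed controls, 5.96 in unstressed ELS mice, 7.58 in controls after AS and 7.46 in stressed ELS mice, a difference of 1.33. Fos, a subunit of the AP-1 factor and the classic marker of recent neuronal activity, stood at 8.94, 8.78, 10.17 and 10.10 in the same order (1.16). Its relative Fosb was at 8.38, 8.51, 9.45 and 9.31 (0.93). In these genes the swum groups were high and the groups without a swim low, with the stressed ELS mice slightly under the controls after AS. Egr1, widely used to map active neurons, had levels of 12.43, 12.65, 13.20 and 13.22 (0.79). Egr4 was at 9.95, 9.98, 10.73 and 10.75 (0.80). In Egr1 and Egr4 the swum groups lay within 0.1 of each other.

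Atf3, a factor of the ATF/CREB family known from stressed and injured cells, had levels of 4.11, 4.37, 4.92 and 5.10 (0.99). The small Maf protein gene Maff was at 3.95, 4.10, 4.67 and 4.84 (0.89). Batf3, an AP-1 partner that was on no list and was among the 15 highest genes, stood at 3.77, 4.38, 4.51 and 4.78 (1.01). In these genes the unstressed controls were lowest and the stressed ELS mice highest. The other members past 0.5 were Klf2 (0.65), Klf4 (0.60), Junb (0.60) and the orphan nuclear receptor Nr4a1 (0.52). Not every fast gene differed. Nr4a3 (−0.13), Klf6 (−0.21) and Myc (−0.02) were below 0. Npas4, which follows calcium entry in neurons, had levels of 7.28, 6.77, 7.90 and 7.53, a difference of 0.25. Controls after AS were higher than unstressed controls by 0.62, and stressed ELS mice were higher than unstressed ELS mice by 0.76.

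The promoters of Fos, Fosb, Atf3 and Egr4 are shown because these genes are among the highest of the list and their windows hold a short form of the cAMP response element, TGACG, which CREB can bind. Each window runs 5′ to 3′ from 250 bases before to 50 bases after the start site in RefSeq on GRCm38.p6, in lower case with TGACG, or CGTCA for a match on the other strand, in capitals.
Fos (chr12:85473640-85473939, plus strand): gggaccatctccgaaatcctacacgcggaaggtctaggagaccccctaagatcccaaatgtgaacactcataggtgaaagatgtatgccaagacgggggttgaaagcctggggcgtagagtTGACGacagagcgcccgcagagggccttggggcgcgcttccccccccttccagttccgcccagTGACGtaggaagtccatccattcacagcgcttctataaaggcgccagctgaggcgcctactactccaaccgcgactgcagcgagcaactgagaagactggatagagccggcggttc
Fosb (chr7:19309996-19310295, minus strand): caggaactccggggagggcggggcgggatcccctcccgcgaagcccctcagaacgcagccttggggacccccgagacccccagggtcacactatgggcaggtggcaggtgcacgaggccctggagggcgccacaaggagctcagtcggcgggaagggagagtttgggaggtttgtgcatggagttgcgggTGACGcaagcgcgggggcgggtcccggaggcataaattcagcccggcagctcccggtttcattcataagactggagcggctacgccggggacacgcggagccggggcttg
Atf3 (chr1:191183284-191183583, minus strand): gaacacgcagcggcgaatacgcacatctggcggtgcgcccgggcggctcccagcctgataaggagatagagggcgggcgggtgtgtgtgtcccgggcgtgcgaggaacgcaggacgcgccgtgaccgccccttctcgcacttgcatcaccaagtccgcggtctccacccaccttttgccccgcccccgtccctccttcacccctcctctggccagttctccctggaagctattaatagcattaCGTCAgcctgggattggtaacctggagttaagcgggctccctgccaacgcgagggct
Egr4 (chr6:85513540-85513839, minus strand): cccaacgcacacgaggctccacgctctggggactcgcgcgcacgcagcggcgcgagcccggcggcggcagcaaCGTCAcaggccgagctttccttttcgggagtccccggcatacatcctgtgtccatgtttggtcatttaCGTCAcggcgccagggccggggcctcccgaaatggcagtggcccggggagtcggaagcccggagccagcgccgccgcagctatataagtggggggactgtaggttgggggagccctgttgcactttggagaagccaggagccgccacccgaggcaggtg
Counted from the start site, the Fos window holds TGACG with its first base at −129 and at −66, and the Fosb window at −60. In Atf3 the match is on the other strand with its first base at −7, and in Egr4 there are 2 such matches at −177 and −109. The full palindrome TGACGTCA, which contains the short form, and the CArG box of serum response factor matched none of the 4 windows. Searched on both strands, TGACG was in 21.0% of 27025 RefSeq windows of the same length, 1 per gene. It was in 13 of the 22 immediate early windows matched by symbol (59.1%) and in 8 of the 10 of those higher by over 0.5 (80.0%). Over all genes higher by over 0.5 it was in 58 of 267 windows (21.7%), a share close to that of all windows. In all, 11559 of the 14986 genes were matched to a window. A match says that the letters are there, and no match says only that they are not in this window.

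Effector genes that follow neuronal activity were more mixed. Of 34, 24 were higher and 10 lower, with 7 higher and 1 lower by over 0.5 and a median of 0.170. Gem, a small GTPase that restrains calcium channels, had levels of 5.08, 5.33, 5.88 and 6.09 (1.00). Arc, whose protein removes AMPA receptors from synapses, was at 11.88, 11.66, 12.44 and 12.44 (0.56). The swum groups had the same Arc level at this precision. The others past 0.5 were the GTPase Arl4d (0.67), the growth arrest genes Gadd45g (0.64) and Gadd45b (0.55), the kinase Pim1 (0.61) and the salt-inducible kinase Sik1 (0.52). Pim1 differed from the rest, as its level was 4.70, 4.75 and 4.73 in the first 3 groups and 5.31 in stressed ELS mice. Bdnf, the brain-derived neurotrophic factor, was level at 10.21, 10.17, 10.20 and 10.22. Arl5b, a GTPase of the trans-Golgi, was lower (7.65, 6.83, 7.13 and 6.93, a difference of −0.72), as was the prostaglandin synthase Ptgs2 (−0.40).

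Of 27 genes known to respond to glucocorticoids, 24 were higher and 3 lower, 7 higher and 1 lower by over 0.5, with a median of 0.348. The list stood at 0.129 in unstressed ELS mice and at 0.208 in controls after AS. Mt2, a metallothionein that binds zinc and copper, had levels of 10.22, 11.15, 11.26 and 11.23 (1.00), and its neighbour Mt1 of 11.37, 12.18, 12.29 and 12.18 (0.81). Both were high in every stressed group and lowest in unstressed controls, with unstressed ELS mice nearly as far from controls as the swum groups. Sdc4, a cell surface proteoglycan, had levels of 7.22, 7.55, 7.55 and 8.16 (0.94). Nfkbia, the inhibitor of NF-κB, was at 9.41, 9.58, 9.37 and 10.18 (0.77). In these 2 genes the stressed ELS mice stood above the other 3 groups.

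Pdk4, a brake on pyruvate dehydrogenase, was at 7.33, 7.26, 7.53 and 7.90 (0.56). The remaining members past 0.5, the connexin Gjb6 (0.59) and the protease Htra1 (0.55), are also on the astrocyte list. The classical targets were not uniformly higher. Fkbp5, the co-chaperone that dampens the glucocorticoid receptor, was nearly the same in all groups (11.16, 11.13, 11.13 and 11.13). Per1 was higher by 0.27 and Sgk1 by 0.19, while Klf9 (−0.34) and Zbtb16 (−0.51; 9.44, 8.82, 8.88 and 8.93) were lower. Among receptors, the glucocorticoid receptor gene Nr3c1 differed by 0.08 and the mineralocorticoid receptor gene Nr3c2 by −0.48 (11.90, 11.32, 11.29 and 11.42), low in all 3 stressed groups.

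The 2 metallothionein promoters are shown because these adjacent genes stood at like differences in all groups and metallothioneins are classic targets of the metal-responsive factor MTF-1. Capitals mark its element, searched as TGCACNC and TGCGCNC on both strands, in the same RefSeq windows.
Mt1 (chr8:94178839-94179138, plus strand): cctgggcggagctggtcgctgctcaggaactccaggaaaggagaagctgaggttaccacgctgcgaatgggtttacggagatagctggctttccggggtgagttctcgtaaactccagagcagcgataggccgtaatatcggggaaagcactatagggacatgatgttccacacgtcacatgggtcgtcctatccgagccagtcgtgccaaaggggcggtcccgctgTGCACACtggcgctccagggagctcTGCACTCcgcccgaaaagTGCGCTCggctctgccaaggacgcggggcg
Mt2 (chr8:94172368-94172667, plus strand): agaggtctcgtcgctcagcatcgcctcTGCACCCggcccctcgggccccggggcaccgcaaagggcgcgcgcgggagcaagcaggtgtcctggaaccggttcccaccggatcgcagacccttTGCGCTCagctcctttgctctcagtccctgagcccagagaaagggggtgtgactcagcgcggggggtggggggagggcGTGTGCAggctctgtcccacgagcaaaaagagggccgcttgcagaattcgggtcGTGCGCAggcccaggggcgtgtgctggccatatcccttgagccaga
The Mt1 window holds 3 matches, with their first bases at −23, 2 and 20, and the Mt2 window 4, at −223, −128, −50 and 4. This short element is common, being in 25.6% of the 27025 windows and in 29.2% of the 267 windows of genes higher by over 0.5. It was also in 12 of the 22 immediate early windows (54.5%), so a higher share in those windows was not particular to TGACG.

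Glial marker genes were higher in stressed ELS mice, those of astrocytes mainly where both stresses were combined. All 24 astrocyte markers were higher, with a median of 0.566 and a range from 0.09 to 1.04. Of these, 17 were higher by over 0.5, against 2.40% of all genes. Apoe, the main lipid carrier of the brain and the only list member past 1, had levels of 11.55, 11.73, 11.54 and 12.59. Aldoc, the brain aldolase, was at 13.45, 13.58, 13.60 and 14.17 (0.72). In both, the first 3 groups lay close together and the stressed ELS mice stood above them. The lipid enzyme gene Acsbg1 (0.68), Mlc1 (0.64), the water channel Aqp4 (0.61), the gap junction gene Gja1 (0.60) and the filament gene Gfap (0.57) had the same shape. Not every marker followed it. S100b, a calcium-binding protein, was already high with either stress (9.93, 10.54, 10.69 and 10.63), the neurotensin receptor gene Ntsr2 was at 8.88, 9.18, 9.30 and 9.40, and the glutamate transporter gene Slc1a2 differed by 0.09.

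As a whole the astrocyte list had medians of 0.077 in unstressed ELS mice and −0.016 in controls after AS, against the same controls. Of the 24 markers, 23 were higher in stressed ELS mice than in both groups with a single stress, where 35.5% of all genes were. Their mean rlog level was 10.14 in unstressed controls, 10.24 in unstressed ELS mice, 10.18 in controls after AS and 10.69 in stressed ELS mice. Several genes outside the lists had the same shape, all named after their values were seen. Sparc, a matrix protein, had levels of 8.89, 9.04, 9.07 and 9.68 (0.79), and Cyr61, a matrix signalling protein, of 4.28, 4.27, 4.48 and 5.14 (0.86).

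Of 24 oligodendrocyte and myelin markers, 22 were higher and 2 lower, with a median of 0.362. Of the 24, 7 were higher by over 0.5, against 2.40% of all genes. Sox10, the factor that defines the lineage, had levels of 9.93, 10.29, 10.14 and 10.69 (0.76). Mobp, a myelin protein gene, was at 11.55, 12.16, 12.24 and 12.29 (0.74), and so high in all stressed groups. Several myelin genes followed another course. Mag, the myelin-associated glycoprotein, was at 9.82, 9.39, 9.08 and 10.02 (0.21), and Mog, the myelin oligodendrocyte glycoprotein, at 8.67, 8.63, 8.29 and 9.09 (0.42). In both, the groups with a single stress lay below unstressed controls and the stressed ELS mice above. The list median was −0.057 in unstressed ELS mice and −0.340 in controls after AS, and all 24 markers were higher in stressed ELS mice than in both of those groups. Mean levels were 10.10, 10.08, 9.91 and 10.45 in the same order. Of 10 precursor markers 9 were higher, with a median of 0.317 and 1 past 0.5, Sox6 (0.51).

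All 23 microglia markers were higher, 15 by over 0.5 against 2.40% of all genes, with a median of 0.603. Tyrobp, the adaptor of Trem2, had levels of 4.87, 5.65, 5.62 and 5.76 (0.89). C1qb, a chain of the complement starter C1q, was at 6.36, 6.83, 6.76 and 7.21 (0.85), and Tmem119, a marker of resident microglia, at 5.47, 5.85, 5.82 and 6.24 (0.77). Controls were lowest and stressed ELS mice highest in each. The groups with a single stress lay in between in C1qb and Tmem119, and close to stressed ELS mice in Tyrobp. Not every member was highest in stressed ELS mice, as Ly86 was higher by 0.79 in unstressed ELS mice and by 0.665 in stressed ELS mice. The list differed from the astrocyte list in that the single stresses were also above controls, with medians of 0.303 and 0.247. Mean levels were 5.88, 6.22, 6.13 and 6.43. P2ry13 (0.03) and Itgam (0.09) were the members nearest 0. The other complement genes did not share this, as the list of 12 had a median of 0.076 with 7 higher, 5 lower and all 3 members past 0.5 being C1q chains.

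In all, 39 of the 71 markers of astrocytes, oligodendrocytes and microglia were among the 359 genes higher by over 0.5. Over all genes the share was 2.40%. None of these markers was absent in unstressed controls, where the lowest stood at 4.50 (Fcer1g). CA3 markers were lower in the same comparison, and the part of glial RNA in the other differences was not tested. Endothelial markers had a median of −0.026 with 8 higher and 13 lower, 3 of the 21 higher by over 0.5, the lipid transporter gene Mfsd2a (0.70), Ly6c1 (0.64) and Ly6a (0.51). Mural and fibroblast markers stood at 0.146, and choroid plexus and ependymal markers at 0.018. Interferon and antigen presentation genes had a median of −0.018 with none past 0.5, and NF-κB and inflammatory genes a median of 0.016 with Nfkbia and the adhesion molecule Vcam1 (0.62) past 0.5.

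**Figure D2:**
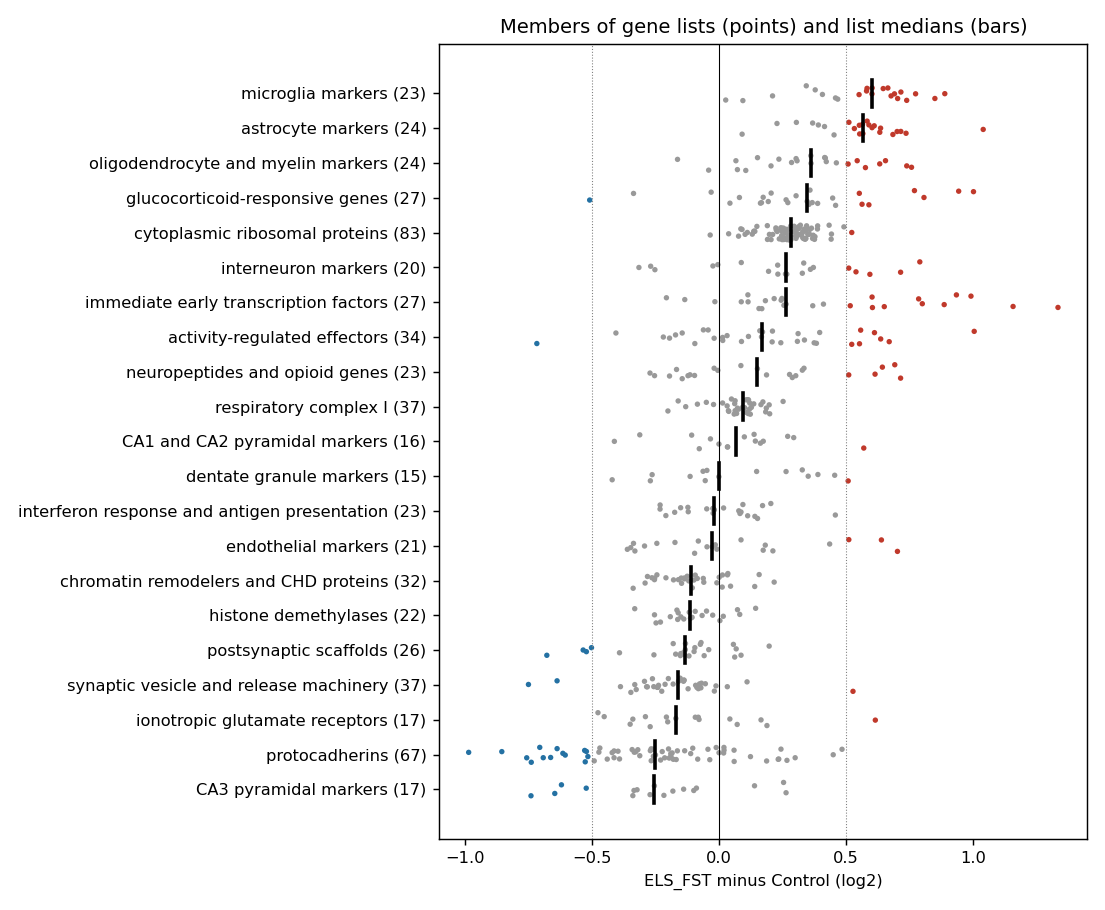
Each point is a gene of a list and the black bar is the list median, with the difference, stressed ELS mice minus unstressed controls (log2), on the x axis and the number of genes in parentheses; dotted lines mark 0.5 in each direction. Among the 21 lists drawn, microglia and astrocyte markers have the highest medians (0.603 and 0.566) and CA3 pyramidal markers the lowest (−0.254).

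Hemoglobin and erythroid genes were also higher. Of the 8 listed, 5 were in the table and 4 passed the filter, and these 4 were higher by 0.52 to 0.82. Their median was 0.642. With the trend of transcript length removed, it was 0.484 over the 3 members with a length, 1 of them past 0.5. The source of this RNA was not tested. Hba-a2, an alpha globin, had levels of 8.98, 9.89, 9.86 and 9.80. Hbb-bs, a beta globin, had levels of 8.53, 9.20, 9.20 and 9.19. The unstressed controls were low and all 3 stressed groups alike. The globin genes are near-identical copies, so how reads were split among them is uncertain.

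Markers of the other neurons were set beside those of CA3. Interneuron markers were higher in 15 of 20 cases, 5 by over 0.5, with a median of 0.265. Pvalb, parvalbumin, had levels of 9.19, 9.79, 9.84 and 9.98 (0.79), and the peptide gene Npy of 8.35, 8.59, 8.56 and 9.06 (0.72). Lhx6, a factor of interneurons from the medial ganglionic eminence, was higher by 0.59, and the receptor tyrosine kinase gene Kit was lower by 0.31. Pvalb was higher in all stressed groups, while Npy stood out in stressed ELS mice. Dentate granule markers had a median of 0.000, with 8 higher and 7 lower. Their hallmark factor Prox1 was at 9.45, 9.04, 8.88 and 9.45, low with either stress alone and at the control level with both, and C1ql2, a mossy fibre synapse protein, was higher by 0.51. CA1 and CA2 markers had a median of 0.068, with only Pcp4 past 0.5 (0.57).

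Peptide genes were mixed. Of 23 neuropeptide and opioid genes 13 were higher and 10 lower, with a median of 0.152 (−0.004 when only members averaging 6 or more were kept), and the 5 past 0.5 were all peptide precursors, Npy, the somatostatin relative Cort (0.69), the tachykinin gene Tac1 (0.64), the nociceptin gene Pnoc (0.61) and Sst (0.51). Npy and Sst are also on the interneuron list. Tac1 had levels of 5.83, 6.03, 5.68 and 6.47, and Pnoc of 6.06, 6.04, 6.18 and 6.67, so that both were highest in stressed ELS mice. The processing and granule genes Pcsk2 (−0.27), Chgb (−0.25) and Cpe (−0.17) were lower. Crhbp, which binds corticotropin-releasing hormone, was at 8.10, 8.21, 8.10 and 8.63 (0.53), whereas the peptide receptor gene Npy2r was lower (9.66, 9.19, 9.13 and 9.10, a difference of −0.56).

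Synaptic genes of neurons were mostly lower, each by a small amount. Of 37 genes for synaptic vesicles and release, 34 were lower and 3 higher, where 50.9% of all genes were lower, with 2 lower and 1 higher by over 0.5 and a median of −0.159. Rims1, the active zone organizer, had levels of 10.72, 9.96, 10.06 and 9.97 (−0.75). It was high in unstressed controls and low in every stressed group. The vesicular glutamate transporter gene Slc17a7 was lower by 0.26, and Unc13c, a priming factor, was higher by 0.53. List medians with a single stress were −0.159 and −0.177.

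Of 26 postsynaptic scaffold genes 21 were lower, 4 by over 0.5, with a median of −0.131. Shank2 had levels of 10.59, 10.19, 10.08 and 9.92 (−0.68), lowest in stressed ELS mice. Also past 0.5 were the guanine nucleotide exchange factor Kalrn (−0.53) and the linker Cnksr2 (−0.50). Ionotropic glutamate receptor genes were lower in 12 of 17 cases with a median of −0.169, among them the kainate receptor gene Grik2 (−0.48) and the NMDA receptor gene Grin2a (−0.45). Of the 5 that were higher, Grin2c, an NMDA receptor subunit gene, was at 7.29, 7.58, 7.27 and 7.91 (0.62), and the other 4 were higher by 0.04 to 0.19. GABA receptor genes were lower in 10 of 14, with the GABAB subunit gene Gabbr2 (−0.65) and Gabra2 (−0.50) past 0.5. Cacna1e, the R-type calcium channel, was at 10.22, 9.41, 9.55 and 9.45 (−0.77) and led the list of calcium, sodium and HCN channels, in which 21 of 30 were lower. Of 72 potassium channel genes 41 were lower, a split near that of all genes, of which 50.9% were lower. Their median was −0.064, and −0.021 with the trend of transcript length removed. Kcnk9 (−0.64) and Kcnt2 (−0.52) were past 0.5, and Kcnj10, the inward rectifier of glia, was higher by 0.54.

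Protocadherins, adhesion molecules whose clustered genes give neurons a surface identity, were lower in 52 of 67 cases, with a median of −0.249. Of the 67, 14 were lower by over 0.5, against 1.55% of all genes. Pcdha9 had levels of 6.40, 5.78, 5.49 and 5.42 (−0.98), Pcdhga5 of 6.85, 5.95, 5.88 and 6.00 (−0.85) and Pcdhga3 of 7.45, 6.56, 6.54 and 6.70 (−0.76). Unstressed controls stood above the 3 stressed groups in each. With a single stress the medians were further from 0, −0.363 in unstressed ELS mice and −0.381 in controls after AS. Genes of a cluster share their last exons, and these transcripts are alike over long stretches, so how reads were split among them is uncertain. Pcdha10 (0.48) and Pcdha1 (0.45) were higher in the same cluster.

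**Figure D3:**
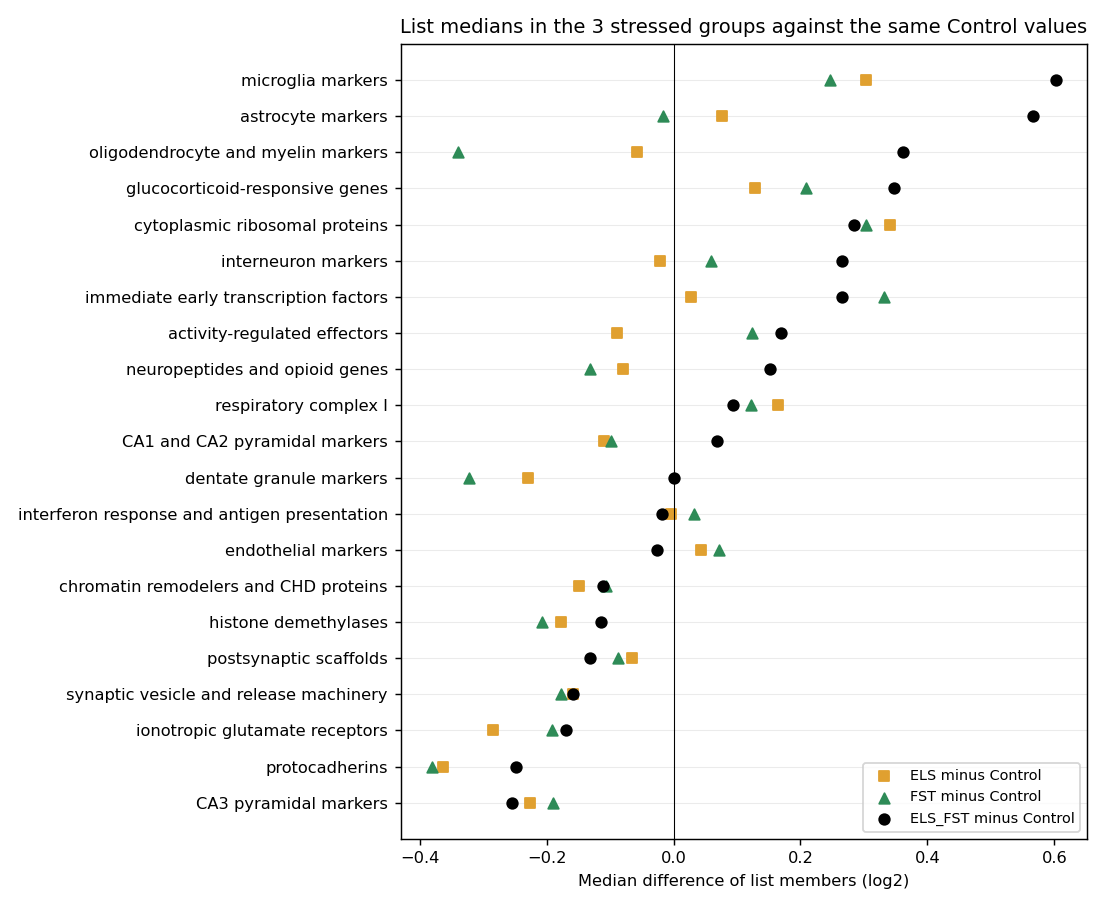
Each row is a gene list and each symbol the median of its members in 1 stressed group minus the same unstressed controls (log2, x axis): squares for ELS mice, triangles for controls after AS and circles for stressed ELS mice. Astrocyte and oligodendrocyte medians are high only in the circles (0.566 and 0.362), while the immediate early median is high in both swum groups (0.265 and 0.331) and the protocadherin median is low in all 3.

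Among genes for protein synthesis and energy, 82 of 83 cytoplasmic ribosomal protein genes were higher, with a median of 0.284 and 1, Rpl37 (0.52), past 0.5. The same list stood at 0.341 and 0.303 with a single stress. Many ribosomal protein genes have near-identical processed copies, so their counts are uncertain. Translation factors were balanced, with 23 higher, 17 lower and a median of 0.023, and only Eif4ebp2 (−0.56), a repressor of cap-dependent translation, past 0.5. Respiratory complexes III to V were higher in 38 of 44 cases with a median of 0.128, and complex I in 31 of 37 with 0.094. With the trend of transcript length removed, as described further on, these medians were −0.007 and −0.054. Of 38 proteasome subunits 19 were higher and 19 lower, with a median of 0.002.

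Chromatin genes differed by little. Of 36 histone methyltransferase genes 27 were lower with a median of −0.097, and none was past 0.5, the nearest being Ezh2 (0.499), the Polycomb methyltransferase, and Dot1l (−0.47). Of 22 demethylase genes 17 were lower (−0.114), and of 32 remodeler genes 23 (−0.111). With the length trend removed these 3 medians were −0.017, −0.029 and −0.012. Deacetylases (−0.011) and genes of DNA methylation (0.009) were near 0, the latter with the methyl-CpG binding factor Zbtb38 past 0.5 (−0.55). Heat shock genes had a median of −0.023, but 3 small heat shock proteins were higher, Hspb1 (5.11, 5.39, 5.62 and 5.96, a difference of 0.86), Cryab (0.63) and Hspb8 (0.54). Hspb1 was highest in stressed ELS mice. The core clock had a median of 0.166 with only Rorb past 0.5 (0.57).

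These list values went with transcript length. Across the 14694 genes (98.1%) with a transcript length, the Spearman rank correlation between the difference and the length of the longest transcript was −0.381, a description across genes that share the same group values. The median difference was 0.147 in the decile of genes with the shortest transcripts and −0.122 in the decile with the longest. The shortest decile held 90 genes higher and 6 lower by over 0.5, and the longest 6 higher and 79 lower. Ribosomal protein genes are short, and with the median of genes of like length subtracted their list median was 0.138 in place of 0.284. In the same way the median of postsynaptic scaffolds went from −0.131 to −0.053, that of ionotropic glutamate receptors from −0.169 to −0.087, and that of calcium, sodium and HCN channels from −0.126 to −0.044. Synaptic vesicle genes went from −0.159 to −0.124 and protocadherins from −0.249 to −0.182. The adjusted medians were 0.527 for astrocyte, 0.542 for microglia, 0.290 for immediate early and −0.251 for CA3 genes. The part of length in the single differences was not tested.

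**Figure D4:**
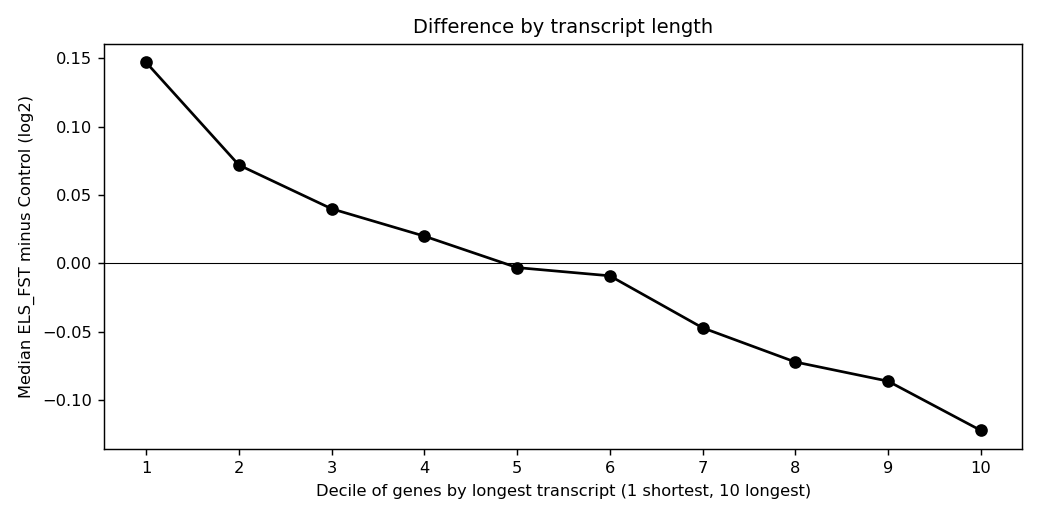
Points are the median difference, stressed ELS mice minus unstressed controls (log2, y axis), in deciles of the genes ordered by their longest transcript (x axis). The median runs from 0.147 in the shortest decile to −0.122 in the longest.

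Some of the largest single differences belong to genes that share sequence with others. The highest, BC002163 (chr16:42955631-42955949), had levels of 8.50, 8.32, 9.12 and 10.12 (1.61). It is a processed pseudogene that is 99.4% identical over 319 bases to Ndufs5, a complex I subunit gene whose own levels were 11.52, 11.89, 11.80 and 11.36 (−0.16). Apol7b, an apolipoprotein L gene, had levels of 3.07, 4.07, 4.18 and 4.42 (1.35), and is 99.3% identical over 2208 bases to Apol7e, which was lower by 0.65. The lowest, Xntrpc (4.09, 2.75, 2.79 and 2.47; −1.62), is a read-through of Xndc1 and Trpc2 with a mean level of 3.03, close to the filter, and Xndc1 differed by 0.01. Gm4737 (6.47, 5.45, 5.57 and 5.13; −1.33) is 99.7% identical over 2083 bases to Ahcy (−0.01), the enzyme that hydrolyses S-adenosylhomocysteine. Adnp (7.58, 6.45, 6.73 and 6.54; −1.04), a homeobox protein of chromatin, shares 4402 bases with Gm20716 (−0.12). How reads were split within these pairs is uncertain.

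The antisense genes 1700113A16Rik (6.30, 8.22, 7.97 and 7.86; 1.56), which overlaps Mef2d (−0.15), and Gm11837 (5.08, 6.46, 6.30 and 6.23; 1.15), which overlaps Necab1 (0.26), are also uncertain, as the library kit does not mark strand. 1500017E21Rik was at 5.34, 6.73, 6.79 and 6.84 (1.50) and was not found by symbol in the annotation. Mir7646 (−0.90) lies within a longer gene and its counts cannot be read as a mature miRNA. Zbed6 (−0.99) lies inside Zc3h11a.

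Of the highest genes without such a partner in the table, Plekhf1 (chr7:38216972-38228016), which encodes an endosomal lipid-binding protein, was at 5.99, 6.30, 6.78 and 7.16 (1.17). Ppp1r3g (chr13:35958839-35970388), a glycogen-targeting subunit of protein phosphatase 1, was at 6.93, 7.31, 7.60 and 7.96 (1.04). Dmp1 (chr5:104202613-104214102), a matrix phosphoprotein known from bone, was at 3.24, 3.71, 3.60 and 4.31 (1.07). All 3 were highest in stressed ELS mice, with the single stresses in between.

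Among the lowest, Cbl (chr9:44142976-44234049), a ubiquitin ligase that turns off receptor tyrosine kinases, was at 7.82, 6.60, 6.82 and 6.60 (−1.22). Slc36a4 (chr9:15709738-15743361), an amino acid transporter, was at 8.07, 7.01, 7.00 and 6.94 (−1.13). Uhmk1 (chr1:170193420-170215397), a kinase with a domain like that of splicing factors, was at 9.43, 8.15, 8.44 and 8.34 (−1.09). In each the unstressed controls stood apart and the stressed groups lay together. Megf9 (9.02, 7.97, 8.03 and 8.02; −0.99) and Uprt (−0.95), Zkscan16 (−0.94), Xpnpep3 (−0.93), Lmbrd2 (−0.88) and the palmitoyltransferase gene Zdhhc23 (−0.87) had the same shape.

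**Figure D5:**
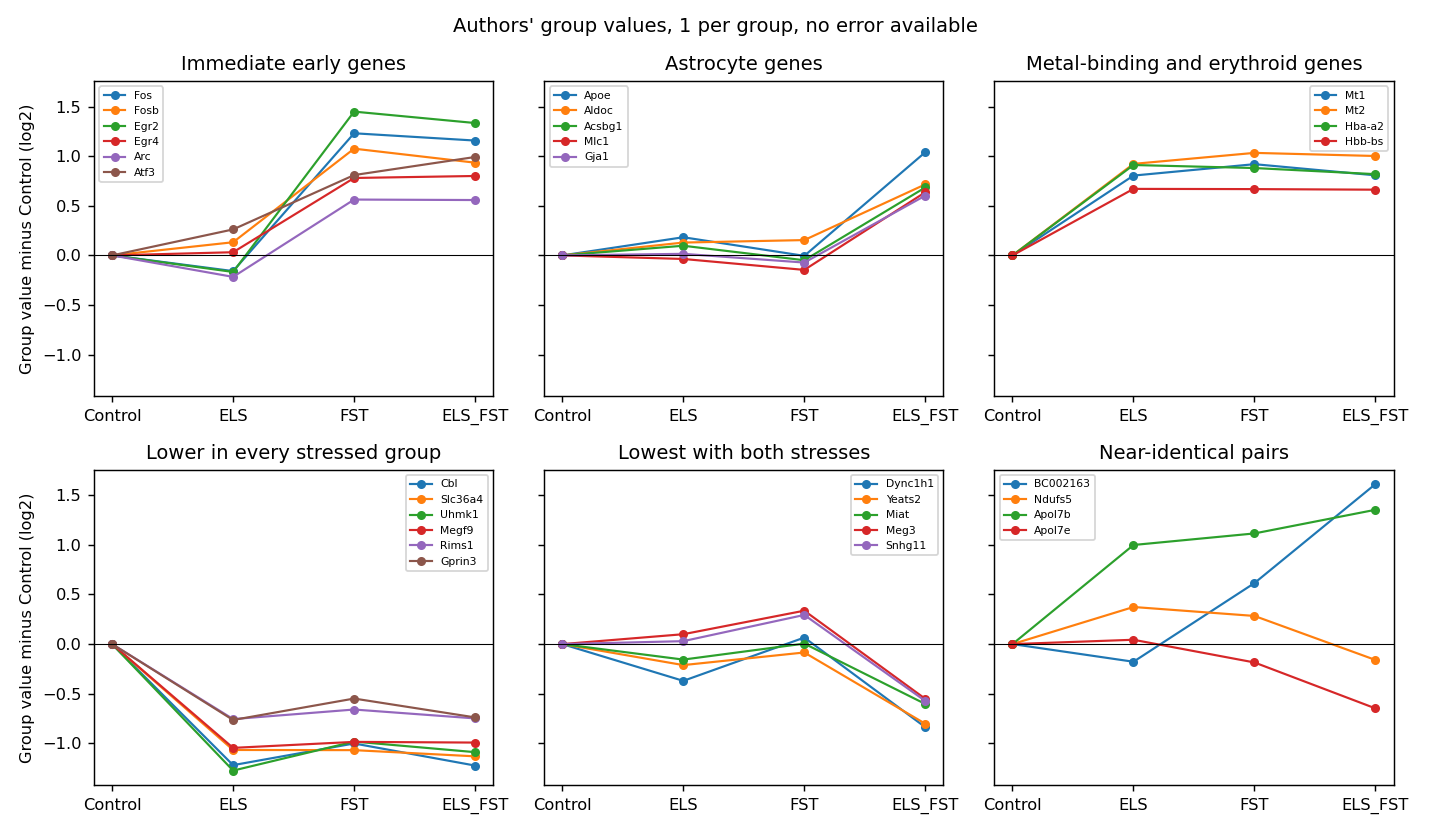
Lines join the group value minus the unstressed control value (log2, y axis) of single genes across the 4 groups (x axis), 1 value per group and no error. Immediate early genes are high in both swum groups (Fos 1.16 in stressed ELS mice), astrocyte genes only in stressed ELS mice (Apoe 1.04), metallothionein and globin genes in every stressed group, and Cbl and its companions low in every stressed group; the last panel shows the near-identical pairs.

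A smaller set stood apart only where both stresses were combined. Within 0.25 of unstressed controls in both single-stress groups, a bound chosen after the values were seen, lay 10233 genes, and of these 79 were higher and 10 lower by over 0.5 in stressed ELS mice. Among the 79 were 15 of the 24 astrocyte markers and 19 of the 71 markers of the 3 glial types, with Apoe the highest. The share to set beside these is 79 of all 10233 genes within the bound, and how many of the markers lay within it was not counted. These markers were described above from the same values, so the overlap is not a separate result. Among the 10 was Yeats2 (9.13, 8.92, 9.05 and 8.33; −0.80), a reader of acylated histones. Dync1h1 (12.53, 12.16, 12.60 and 11.69; −0.84), the heavy chain of cytoplasmic dynein, and Col6a1 (5.65, 5.03, 5.83 and 4.79; −0.86), a collagen chain named after its values were seen, were lowest in stressed ELS mice without meeting the bound.

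A list of nuclear and imprinted long non-coding RNAs was also lower in the combination than in its parts. The list name is broad, as its member Snhg11 is annotated as protein coding. All 16 measured were lower in stressed ELS mice than in both single-stress groups, where 35.7% of all genes were. Some of these gaps were small, as in Snhg8 (−0.02 against unstressed ELS mice and −0.03 against controls after AS). Against unstressed controls 8 of the 16 were higher and 8 lower, with a median of −0.000 beside 0.276 in unstressed ELS mice and 0.407 in controls after AS. Miat was at 9.91, 9.75, 9.91 and 9.31 (−0.60), Snhg11 at 10.94, 10.97, 11.24 and 10.37 (−0.57) and the imprinted Meg3 at 11.90, 12.00, 12.24 and 11.35 (−0.55). Other members were higher than in unstressed controls. Snhg8 was past 0.5 (7.23, 7.82, 7.83 and 7.80, a difference of 0.58), followed by Pantr1 (0.455), Snhg12 (0.38), Gas5 (0.38) and Rian (0.33). With the length trend removed the list median was 0.130. Malat1, a nuclear speckle RNA, was at 9.92, 10.33, 10.78 and 9.93, so that the stressed ELS mice had the level of unstressed controls.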

How the data were processed

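Per the labels and methods, RNA was sequenced from 10 TRAP libraries. The submitters' processing notes name Subread, Salmon, DESeq2 and limma and the mm10 build, and tool versions are not given in the sources used here. The authors deposited log2 values, the DESeq2 regularized logarithm, which shrinks differences of genes with few reads. How libraries were combined into the 1 value per group is not stated, nor whether the limma batch correction named for heatmaps was applied. The methods state an approximate read depth per sample, which the group values do not show; no per-library values were used, and no precision can be given.

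Differences of group values were computed for genes averaging 3 or more, and differences of over 0.5 were counted. Left out were 25 symbols turned into dates, 1 of them past 0.5 (−0.55). The text names the 15 highest and 15 lowest genes, up to 3 members per direction of each of 51 lists, immediate early members past 0.5 and Gprin3; others were named after their values were seen. The genes and lists were chosen with earlier results of these data known. Lengths and positions are from GENCODE M21, promoters from RefSeq. Alternatives were other sizes, filters, centring, list means and removal of the length trend in 50 bins. Scripts were tested on simulated data and used Python 3.11.15, numpy 2.4.6, pandas 2.3.3 and matplotlib 3.10.9.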

Additional observations from a re-analysis of the deposited data

How the results depend on the processing

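With 1 value per group, leaving out a library was not possible. No paired analysis was possible because the table holds no values per library. At a size of 0.25 there were 1697 genes higher and 1419 lower, against 359 and 233 at 0.5, and at a size of 1 there were 14 and 6. With a mean of at least 6, 230 genes were higher. With the length trend removed 315 were higher and 158 lower. Of 255 list medians recomputed under alternatives, 244 stayed within 0.1 of the value given. Of these, 51 came from centring, which only takes off the overall median of −0.004 and so could not move them further. Many list medians were themselves about 0.1 or less, so this count does not show that small ones held. Histone demethylases, for instance, went from −0.114 to −0.029 with the length trend removed and were counted as unmoved. In 17 lists the sign changed under at least 1 alternative, and all but 2 of them had medians within 0.1 of 0. The exceptions were neuropeptide and opioid genes, from 0.152 to −0.004 with a mean of at least 6, and respiratory complexes III to V, from 0.128 to −0.007 with the length trend removed. Ribosomal proteins moved from 0.284 to 0.138 in the same setting, and immediate early factors from 0.265 to 0.435 with the mean in place of the median. The cause was not tested. No difference can be set against the spread between libraries.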
